A study of Mus musculus with 4 samples.

Results

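The genes for enzymes that cut and untangle DNA, and for those that clear these enzymes from DNA ends, were followed through the cell types of the mouse ovary: Top1, Top2a, Top2b, Top3a, Tdp1 and Tdp2. They were taken by symbol and made up 6 of the 32285 genes counted, and each had UMIs (unique molecular identifiers, tags that count a captured transcript once) in all 4 libraries. Topoisomerases relieve the twist that builds up when DNA is copied or transcribed: topoisomerase I (Top1) nicks a single strand, the type II enzymes (Top2a and Top2b) cut both strands and pass another duplex through the gap, and topoisomerase III alpha (Top3a) separates linked strands during recombination. Top2a is made mainly by dividing cells, peaks before mitosis and acts on condensing chromosomes, while Top2b is also made by cells that do not divide. Doxorubicin, an anthracycline used against cancer, traps type II topoisomerases on the DNA they have cut. Tyrosyl-DNA phosphodiesterases release such trapped enzymes, Tdp1 mainly topoisomerase I and Tdp2 mainly topoisomerase II. Granulosa cells divide as the follicle grows, and they secrete anti-Müllerian hormone (AMH).

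The libraries came from ovaries of prepubertal mice, treated at postnatal day 25 and collected 4 hours after the last doxorubicin dose. The control group received vehicle (PBS/saline). The doxorubicin group received 2 doses at 3 mg/kg a week apart, the doxorubicin+AMH group received these with recombinant human AMH at 0.75 mg/kg, and the AMH group received AMH at 0.75 mg/kg without doxorubicin. Each group was 1 library, pooled from a single ovary of each of 5 animals, so animals cannot be told apart, no difference between groups has a replicate check, and each comparison is between libraries. No strain, genotype or route of dosing is given in the labels.

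After filtering, 7972 control, 6044 doxorubicin, 6548 doxorubicin+AMH and 7887 AMH cells were left of the 9202, 7141, 7818 and 9478 deposited, whose totals ran from 138647495 to 178279122 UMIs. Pairs of libraries shared between 11 and 24 cell barcodes. Joint clustering gave 30 clusters. All but 2 were named for 12 classes by their markers, written with "-like". Clusters 11 and 13 passed the granulosa list (8 and 7 of 8 markers) but stayed unnamed for their low depth and leading genes, so 209, 246, 363 and 676 cells with granulosa markers lie outside the granulosa-like class. No cluster met the marker rule for oocytes or luteal cells. Levels are in CPM, the UMIs of a gene summed over the cells of a class in a library and scaled to the same total of UMIs for every sum. Intervals are 95% and exact, and they cover counting error only. Library preparation counts transcript ends, so levels are not compared between genes. Changes are log2 ratios of CPM, and a gene was counted as changed when it differed at least 1.5-fold. Such counts were kept to the 4 classes that held 500 cells or more in every library. Values are listed throughout in the order control, doxorubicin alone, both agents, AMH alone. The 4 classes were granulosa-like (1931, 1863, 1946 and 2365 cells), stroma-like (3069, 2211, 2167 and 2203), theca-like (856, 601, 775 and 921) and mural smooth muscle-like cells (1037, 624, 837 and 954). Erythroid-like cells (61, 59, 75 and 41) served as a measure of free RNA.

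The promoters of the type II genes are shown because these genes differed in how far they followed cell division, and because the CCAAT box and the cell cycle homology region (CHR) are elements known from genes of the G2 and M phases. Of the 6 genes, 4 had an entry in the RefSeq promoter table (GRCm38.p6), and no entry was found for Top3a and Tdp2. The stretches were read 5′ to 3′ on the strand of the gene, up to 250 bases before its start, and letters of the motifs CCAAT and TTTGAA on either strand are in capitals (CCAAT or ATTGG for the CCAAT box, TTTGAA or TTCAAA for the CHR). The Top2a stretch lies at chr11:99024190-99024439 on the minus strand, and the Top2b stretch at chr14:16364956-16365178 on the plus strand.
Top2a: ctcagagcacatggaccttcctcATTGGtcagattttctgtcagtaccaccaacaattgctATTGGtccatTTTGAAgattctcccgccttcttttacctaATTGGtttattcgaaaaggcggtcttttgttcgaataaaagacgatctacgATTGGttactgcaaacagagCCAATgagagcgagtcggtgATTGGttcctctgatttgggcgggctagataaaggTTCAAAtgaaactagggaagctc
Top2b: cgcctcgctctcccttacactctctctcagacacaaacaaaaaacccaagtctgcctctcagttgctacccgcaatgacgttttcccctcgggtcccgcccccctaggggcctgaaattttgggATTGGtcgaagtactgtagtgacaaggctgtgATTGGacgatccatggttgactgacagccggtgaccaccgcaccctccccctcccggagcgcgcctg
The Top2a stretch held 6 CCAAT boxes, 227, 189, 149, 98, 78 and 58 bases before the start, and 2 CHR matches, 179 and 23 bases before it. The Top2b stretch held 2 CCAAT boxes, 126 and 94 bases before the RefSeq start, and 0 CHR matches. The printed Top2b stretch stops 27 bases short of that start, where the gene position given below begins. The stretch of Top1 held neither motif, and that of Tdp1 held 1 CHR match and 0 CCAAT boxes. Among all 32851 promoters of the table, read over 250 bases, 33.85% held at least 1 CCAAT box, 10.1% at least 2 and 0.0578% (19 promoters) at least 6. A CHR match was held by 15.99% and at least 2 by 1.81%. A match describes the letters and says nothing of a bound factor.

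Top1 (ENSMUSG00000070544, chr2:160645888-160722764, plus strand, GRCm38), which relaxes DNA ahead of polymerases, had the most even level of the 6 genes over the 4 large classes and the libraries. Its level was 466.6, 467.3, 430.7 and 451.6 CPM in granulosa-like cells and 444.5, 439.1, 416.3 and 411.7 CPM in stroma-like cells. It was 378.3, 380.4, 381.4 and 374.8 CPM in theca-like cells and 391, 391.7, 352.5 and 359.7 CPM in mural smooth muscle-like cells. The highest of these 16 values was 1.33 times the lowest, and in granulosa-like, stroma-like and mural smooth muscle-like cells both libraries with AMH lay below both without it. In granulosa-like cells AMH / control was -0.047 (-0.070 to -0.025), where the median of all genes was -0.080, and median-of-ratios scaling turned it to 0.069. Macrophage-like cells had 297.3, 303.3, 246.8 and 295.8 CPM. Erythroid-like cells had 90.4, 66.7, 164.1 and 76.1 CPM, below every value above.

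Top2a (ENSMUSG00000020914, chr11:98992943-99024189, minus strand) differed most between cell types. Granulosa-like cells had 216.5, 196.6, 300.5 and 209.9 CPM, so doxorubicin+AMH stood above the other 3 libraries, which lay close together. Stroma-like cells had 150.3, 152.9, 138.5 and 114.8 CPM, with AMH the lowest. Theca-like cells had 10.3 CPM in control and 52.9, 58.5 and 43.2 CPM in the other 3 libraries. Mural smooth muscle-like cells had 30.1, 29.4, 41.7 and 41.7 CPM. The AMH value lies within the erythroid-like interval of that library (11.96 to 70.95 CPM), so no order of AMH against the other libraries is read. Blood endothelial-like cells had 236, 132.6, 103.7 and 102.5 CPM, with control the highest. Macrophage-like cells had 85.9, 57.0, 92.7 and 57.0 CPM.

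Over all libraries together, the order of Top2a levels was T or NK lymphocyte-like (298.6 CPM, libraries 159.6 to 341), granulosa-like (229.9, 196.6 to 300.5), blood endothelial-like (159.4, 102.5 to 236), stroma-like (141.3, 114.8 to 152.9), B lymphocyte-like (117.7, 90.4 to 154), lymphatic endothelial-like (99.2, 67.5 to 151.6), macrophage-like (73.5, 57.0 to 92.7), theca-like (38.2, 10.3 to 58.5), mural smooth muscle-like (36.0, 29.4 to 41.7), oviduct-type epithelial-like, surface epithelial-like (23.2, 11.2 to 30.0) and erythroid-like cells (11.3, 2.47 to 32.6). Oviduct-type epithelial-like cells were nearly missing from the doxorubicin library (1 cell) and had 10.5, 37.9 and 33.6 CPM in control, doxorubicin+AMH and AMH. Of the neighbours in this order, each pair overlapped in its range over libraries. Granulosa-like cells overlapped neither theca-like nor mural smooth muscle-like cells.

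Top2b (ENSMUSG00000017485, chr14:16365179-16435462, plus strand), the type II enzyme of resting as well as dividing cells, overlaps its antisense neighbours Rarb and Gm48163 over 4624 and 1090 bases, and whether counting used the strand is not stated, so reads from these genes cannot be told apart there. Its level was 118.2, 116.3, 103.8 and 107.4 CPM in granulosa-like cells and 101.9, 98.9, 92.2 and 87.2 CPM in stroma-like cells. Theca-like cells had 81.3, 84.1, 86.0 and 74.4 CPM, and mural smooth muscle-like cells 110.9, 101.2, 95.5 and 87.1 CPM. As with Top1, the libraries with AMH were the lowest in granulosa-like, stroma-like and mural smooth muscle-like cells. AMH / control was -0.14, -0.22 and -0.35 in these classes, where the median of all genes was -0.080, -0.077 and -0.080. Over the settings tried, the granulosa-like value ran from -0.16 to -0.02. Lymphatic endothelial-like cells had the highest level over all libraries (151.2 CPM), macrophage-like cells had 59.8 CPM and erythroid-like cells 20.4 CPM. The Top2a share of all type II topoisomerase UMIs is given only to compare classes and libraries, not the levels of both genes. It was 64.7%, 62.8%, 74.3% and 66.1% in granulosa-like cells and 56.8% to 60.7% in stroma-like cells. It was 11.2%, 38.6%, 40.5% and 36.8% in theca-like cells, where control stood apart, and 21.3%, 22.5%, 30.4% and 32.4% in mural smooth muscle-like cells.

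Top3a (ENSMUSG00000002814, chr11:60740058-60777365, minus strand), which dissolves linked DNA with the Blm helicase, was low and, among named classes, had its highest level in theca-like cells of the libraries without AMH: 17.5, 18.6, 8.74 and 9.75 CPM. Both libraries with AMH lay below both without it, and the intervals of the pairs did not overlap. Granulosa-like cells had 11.2, 9.45, 9.36 and 8.45 CPM, stroma-like cells 6.54, 6.43, 6.23 and 5.56 CPM, and mural smooth muscle-like cells 4.95, 5.08, 5.20 and 5.62 CPM. In erythroid-like cells, 1 Top3a UMI was counted over the 4 libraries in all.

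Tdp1 (ENSMUSG00000021177, chr12:99884517-99955219, plus strand), the enzyme that frees DNA from topoisomerase I, had 13.7, 14.3, 15.1 and 13.2 CPM in granulosa-like cells, 13.2, 13.2, 13.4 and 12.02 CPM in stroma-like cells, 8.92, 8.65, 8.15 and 8.94 CPM in theca-like cells, and 11.7, 11.7, 11.9 and 10.1 CPM in mural smooth muscle-like cells. Theca-like cells were below granulosa-like and stroma-like cells in every library. Tdp2 (ENSMUSG00000035958, chr13:24831679-24842153, plus strand), the enzyme that frees DNA from the type II topoisomerases that doxorubicin traps, had 29.5, 28.8, 30.1 and 28.7 CPM in granulosa-like cells. It had 32.7, 28.5, 30.25 and 29.02 CPM in stroma-like cells, 27.3, 31.6, 24.9 and 24.4 CPM in theca-like cells, and 26.6, 29.8, 26.6 and 27.2 CPM in mural smooth muscle-like cells. Over these 16 values the highest Tdp2 level was 1.34 times the lowest, against 1.85 for Tdp1, 3.76 for Top3a and 29.2 for Top2a. In erythroid-like cells Tdp1 and Tdp2 stood at 2.81 CPM each over all libraries.

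**Figure D1:**
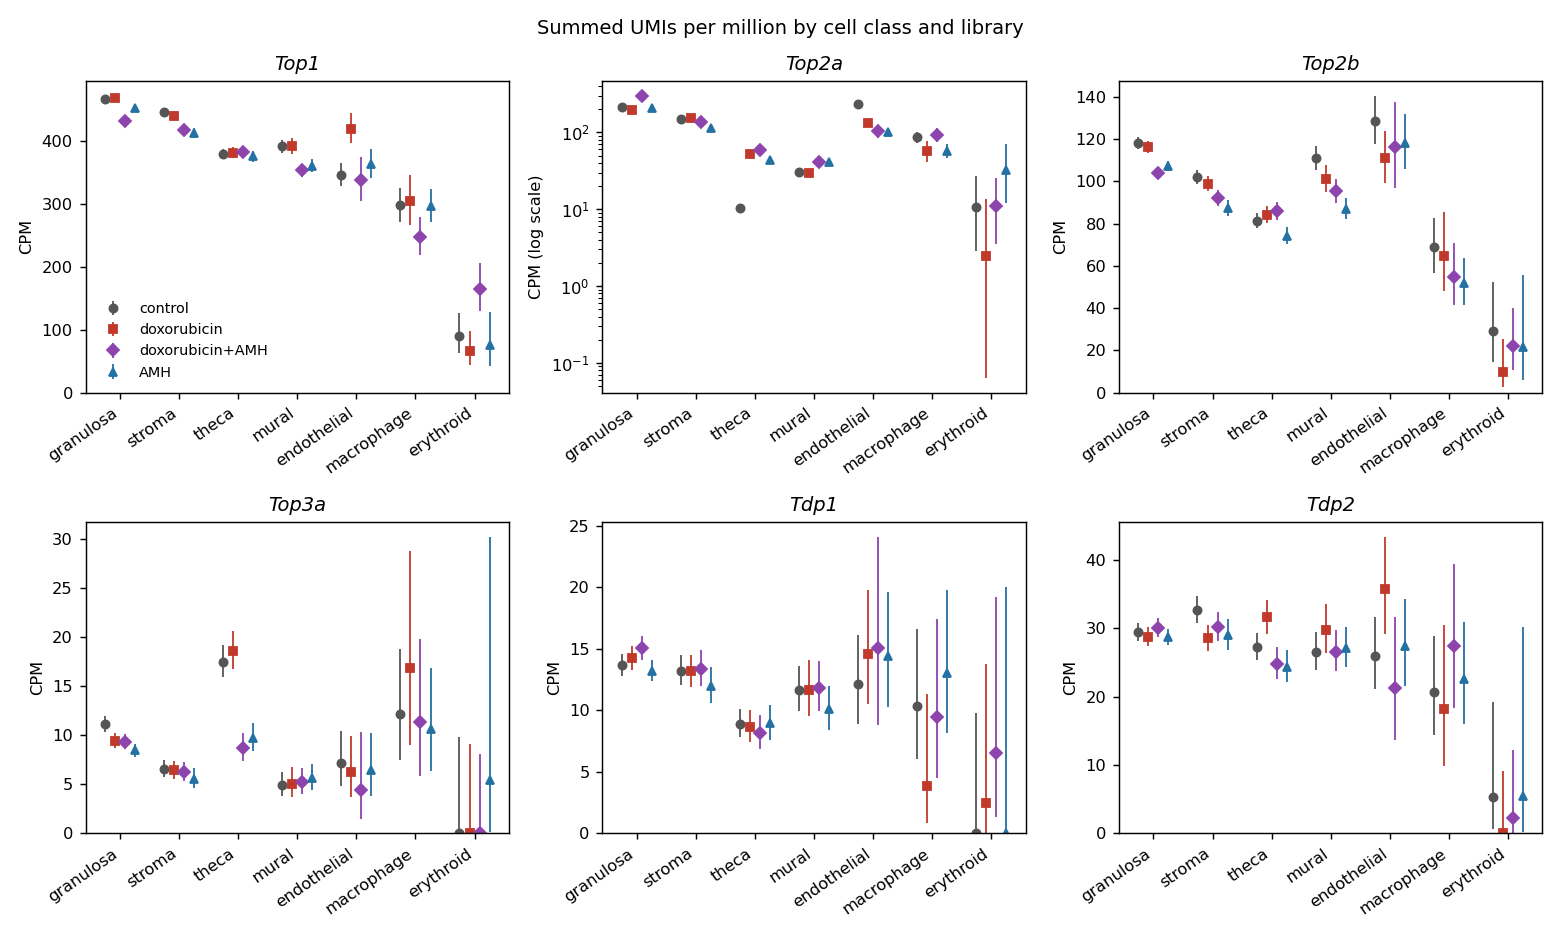
Level of each gene in CPM (vertical axes, log scale for Top2a only) in 6 ovarian cell classes and in erythroid-like cells, for the 4 libraries, with bars for exact 95% counting intervals. Top2a spans 10.3 to 300.5 CPM over the 4 large classes, Top1 and Tdp2 stay within 1.34-fold, and Top3a in theca-like cells is at 17.5 and 18.6 CPM without AMH and at 8.74 and 9.75 CPM with it.

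Doxorubicin / control and doxorubicin+AMH / AMH compare the drug with its absence, without and with the hormone, and the other comparisons do the same for AMH. Across the 6 genes and 4 classes, doxorubicin / control had 1 of 24 values past 1.5-fold and doxorubicin+AMH / AMH had 0 of 24. Between 0.621% and 4.01% of all genes passed in these comparisons of the 4 classes, so both counts are near the background. Tdp2, which acts on the lesion that doxorubicin makes, ranged from -0.35 to 0.21 on the log2 scale over all 16 values of the 4 classes and 4 comparisons, with 0 past 1.5-fold. Tdp1 ranged from -0.21 to 0.23, Top1 from -0.15 to 0.02 and Top2b, the other doxorubicin target, from -0.35 to 0.21, also with 0 past 1.5-fold. The doxorubicin / control ratio of Tdp2 was -0.03 (-0.13 to 0.06) in granulosa-like cells and -0.20 (-0.33 to -0.07) in stroma-like cells. It was 0.21 (0.06 to 0.37) in theca-like and 0.17 (-0.06 to 0.40) in mural smooth muscle-like cells. For Top2b it was -0.02 (-0.07 to 0.02), -0.04 (-0.11 to 0.03), 0.05 (-0.04 to 0.14) and -0.13 (-0.25 to -0.01) in the same order. All 8 of these intervals lay within 1.5-fold.

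Granulosa-like cells had 0 of 6 genes past 1.5-fold in doxorubicin / control, where 0.621% of all 10625 genes were, and again 0 of 6 in doxorubicin+AMH / AMH, where 1.88% were. In AMH / control 0 of 6 passed beside 4.71% of all genes. In doxorubicin+AMH / doxorubicin 1 of 6 (Top2a) passed beside 6.23%. Top2a stood at -0.14 (-0.17 to -0.10) in doxorubicin / control but at 0.52 (0.49 to 0.55) in doxorubicin+AMH / AMH. AMH / control gave -0.045 (-0.078 to -0.011), which turned to 0.07 with median-of-ratios scaling. The value of 0.61 (0.58 to 0.65) in doxorubicin+AMH / doxorubicin lay close to the limit of 0.585. With at most 10% mitochondrial UMIs it was 0.579, with doublets left in 0.50 and with cells gated one by one 0.33, all under 1.5-fold. Without clusters 25 and 29, which were almost only in doxorubicin (175 of 177 and 77 of 78 cells), and cluster 16 it was 0.59.

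In stroma-like cells, 0 of 6 genes passed in each comparison. Of all 11153 genes 1.37% passed in doxorubicin / control and 1.77% in doxorubicin+AMH / AMH. AMH / control had 2.25% and doxorubicin+AMH / doxorubicin 2.68%. In mural smooth muscle-like cells, also 0 of 6 passed in each, beside 4.01%, 3.61%, 3.47% and 3.73% of 11003 genes in the same order. Top2a in mural smooth muscle-like cells stood at 0.47 (0.28 to 0.66) in AMH / control, at 0.50 (0.29 to 0.72) in doxorubicin+AMH / doxorubicin, and at -0.03 and -0.00 for the doxorubicin comparisons. Its AMH level lies within the erythroid-like interval of that library. The size of AMH / control and of doxorubicin+AMH / AMH is therefore uncertain. With cells of at least 500 UMIs the value for doxorubicin+AMH / doxorubicin turned to -0.25, and the value for doxorubicin+AMH / AMH went to -0.76. Without cluster 16, of which doxorubicin had 19 of 458 cells, AMH / control was 0.38 and doxorubicin+AMH / doxorubicin 0.52.

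Theca-like cells had 1 of 6 genes past 1.5-fold in doxorubicin / control (2.29% of 10476 genes) and 0 of 6 in doxorubicin+AMH / AMH (2.42%). The background was far larger where AMH was compared with its absence. It was 19.1% in AMH / control, with 2 of 6 genes past 1.5-fold, and 18.2% in doxorubicin+AMH / doxorubicin, with 1 of 6. The values were Top2a at 2.36 (2.17 to 2.56) for doxorubicin / control and 2.07 (1.87 to 2.27) for AMH / control, and Top3a at -0.84 (-1.10 to -0.59) for AMH / control and -1.09 (-1.38 to -0.81) for doxorubicin+AMH / doxorubicin. Top3a in doxorubicin+AMH and AMH overlaps the erythroid-like intervals (0 to 8.07 and 0.14 to 30.3 CPM), so the size of its ratios is uncertain. Over all libraries together erythroid-like cells had 0.70 CPM of Top3a (0.018 to 3.92), from 1 UMI. The comparisons with control share that library, and its 10.3 CPM of Top2a enters both Top2a values. That level (9.10 to 11.6) lies within the interval of erythroid-like cells of the control library (2.90 to 27.2), so it is not above background and the size of both ratios is uncertain. The AMH level of 43.2 CPM also lies within the erythroid-like interval of its library (11.96 to 70.95). Neither side of AMH / control is thus above background. With doublets left in, the Top2a ratios were 1.00 and 0.97.

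**Figure D2:**
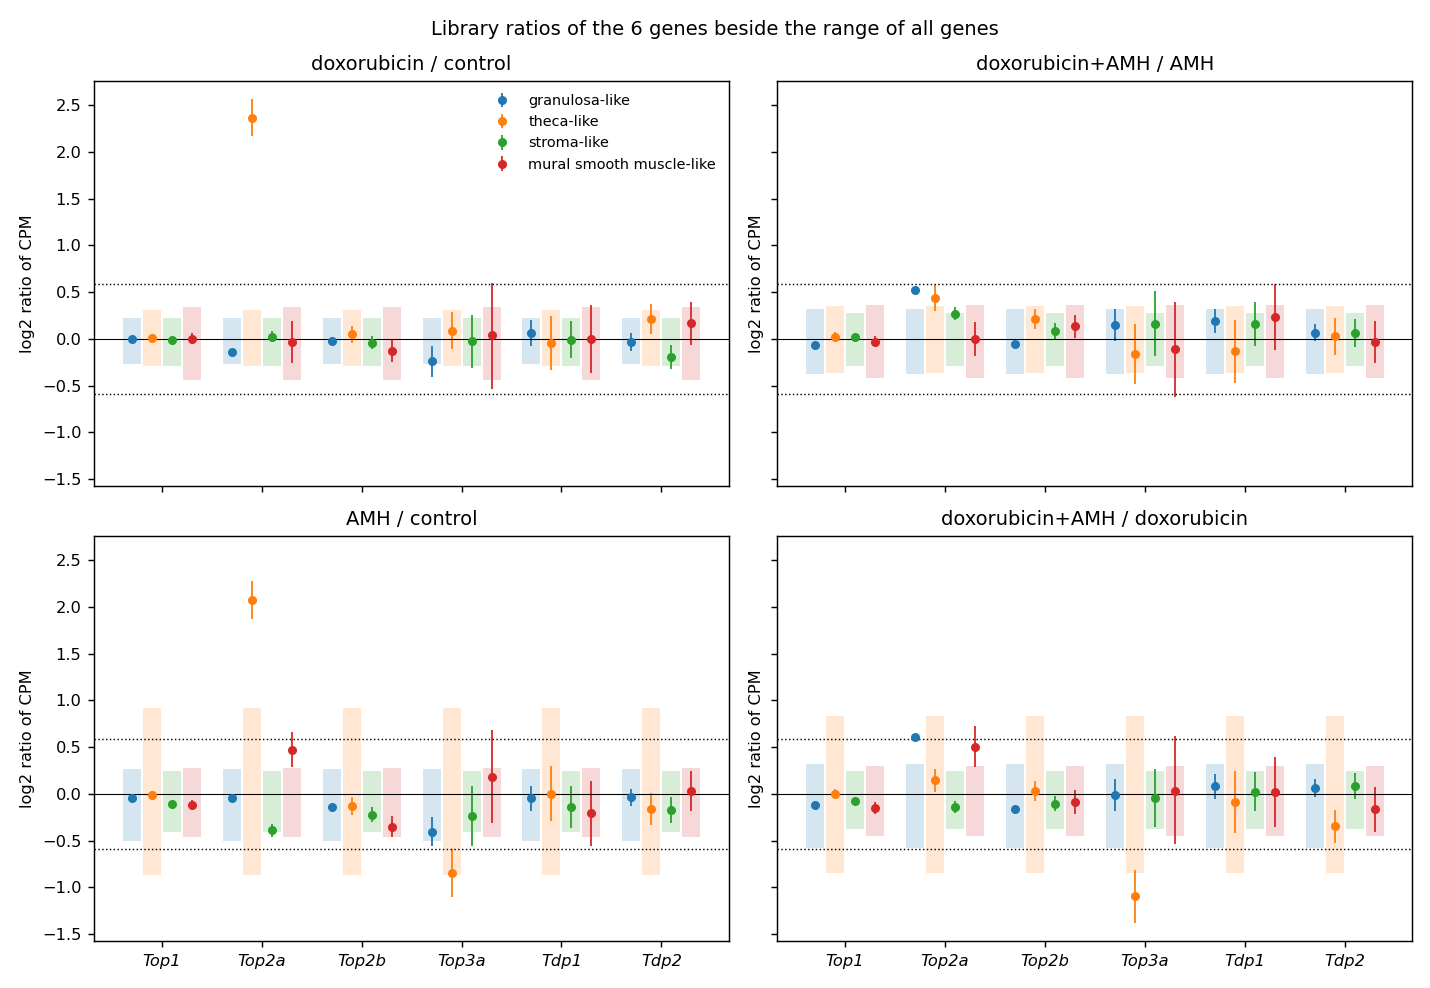
Log2 ratio of CPM (vertical axis) of each gene in the 4 comparisons and 4 large classes, with 95% counting intervals. Shaded boxes span the 5th to 95th percentile of all genes of the class, and dotted lines mark 1.5-fold. The points past a dotted line are Top2a and Top3a, and the boxes of theca-like cells are widest where AMH libraries are compared with libraries without it.

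Top2a differed with cell division, a property that the choice of the genes did not use. Cells were called cycling when they held at least 5 UMIs of S phase and G2/M genes, lists that leave out the 6 genes, after thinning to 2000 UMIs, for which 15 to 34 granulosa-like cells a library were too shallow. The share of cycling granulosa-like cells was 50.4% (48.15 to 52.7), 54.8% (52.5 to 57.1), 61.0% (58.8 to 63.2) and 56.2% (54.1 to 58.2). The size of this share is set by the limit chosen: in control it was 27.1% when thinned to 1000 UMIs and 77.0% with at least 3 UMIs. With 5 UMIs at 2000, the cycling cells' Top2a level was 360.9, 328.7, 430.9 and 334.9 CPM, against 13.3 to 22.45 CPM in the other granulosa-like cells. Between 92.45% and 97.15% of the thinned Top2a UMIs of the class lay in cycling cells. In the other large classes it was 74.2% to 88.4% in stroma-like, 48.4% to 89.3% in theca-like and 51.85% to 82.35% in mural smooth muscle-like cells, from 216 to 397, 23 to 62 and 34 to 57 thinned UMIs a library. Blood endothelial-like cells had 93.3% to 100%, from 6 to 45 thinned UMIs a library. Cycling cells with more S phase than G2/M UMIs had 151.8, 138.4, 160.9 and 128.8 CPM, and those with more G2/M UMIs 433.2, 410.4, 508.0 and 399.9 CPM. In stroma-like cells the level was 391.9, 377.9, 300.2 and 272.4 CPM in cycling cells and 10.2, 12.6, 17.7 and 17.4 CPM in the others.

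The other genes differed less between cycling and other granulosa-like cells. In granulosa-like cells the log2 difference of cycling minus other cells lay between -0.04 and 0.03 for Top1 and between -0.06 and 0.05 for Top2b. It was 0.43, 0.68, 0.59 and 0.53 for Tdp1, 0.23, 0.44, 0.24 and 0.23 for Tdp2, and 0.46, 0.45, 0.26 and 0.32 for Top3a, with intervals above 0 in every library for Tdp1 and Tdp2. For Top2a it was 4.69, 4.62, 4.38 and 3.90, values of uncertain size because the level in the other cells lay within the erythroid-like interval of each library. In stroma-like cells the difference was 0.12, 0.22, 0.19 and 0.14 for Top2b, with each interval above 0, and 1.01, 0.65, 0.54 and 0.17 for Tdp1, with the AMH interval across 0.

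The granulosa-like cells were then split by how many cell cycle UMIs each held after thinning, bins that were chosen after the values above were seen. Cells with 20 or more were 11.8%, 9.63%, 18.5% and 12.2% of the class, most in doxorubicin+AMH. In those cells Top2a was at 900.8, 839.4, 888.1 and 843.0 CPM. Doxorubicin+AMH was below control and above the other 2 libraries. Cells of a bin are alike in genes that go with Top2a, so closer Top2a levels within a bin are built in. Cells with 10 to 19 had 352.0, 320.2, 358.8 and 333.6 CPM and made up 13.5%, 14.1%, 16.5% and 14.1%. Cells with 5 to 9 had 57.1, 51.6, 58.0 and 75.0 CPM, with AMH the highest. In the lowest bin, with 0 or 1 cell cycle UMI, Top2a was at 8.36 (5.97 to 11.4), 16.3 (12.7 to 20.6), 15.5 (12.1 to 19.5) and 20.9 (17.3 to 24.9) CPM. Those intervals overlap the 10.6 (2.90 to 27.2), 2.47 (0.0626 to 13.8), 10.9 (3.55 to 25.5) and 32.6 (11.96 to 70.95) CPM of erythroid-like cells.

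**Figure D3:**
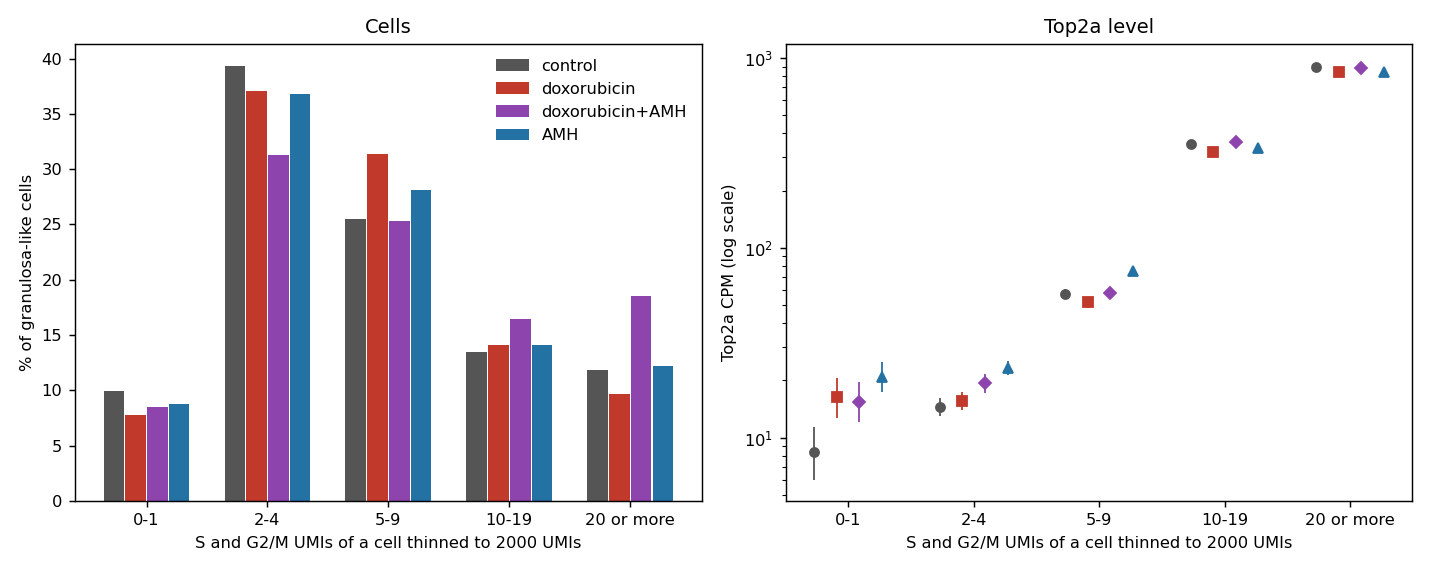
Granulosa-like cells binned by their number of S and G2/M phase UMIs after thinning to 2000 UMIs (horizontal axes), as the percentage of cells in each library (left, bars from 0) and as the Top2a level in CPM (right, log scale, 95% counting intervals). The bin of 20 or more holds 18.5% of doxorubicin+AMH cells and 9.63% to 12.2% of the other libraries, at Top2a levels between 839.4 and 900.8 CPM in all 4.

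The share of granulosa-like cells with a Top2a UMI after thinning was 17.1% (15.4 to 18.8), 16.8% (15.2 to 18.6), 23.7% (21.8 to 25.6) and 18.7% (17.1 to 20.3), and 39.9%, 44.4%, 52.5% and 48.5% unthinned at median depths of 20693 to 24321 UMIs. In erythroid-like cells, taken here as a measure of free RNA, it was 0% of 48 cells (exact upper limit 7.397%, and 6.25% by the limit of 3 counts), 1.85% of 54, 3.33% of 60 and 16.1% (5.45 to 33.7) of 31. Their median depths were 5533, 6553, 5516 and 3928 UMIs. Of the 31 erythroid-like cells of AMH, 3 were called cycling, and they held 40% of the 5 thinned Top2a UMIs. Top2a made by dividing cells cannot be told apart from free RNA there. The shares of theca-like, stroma-like and mural smooth muscle-like cells lay between 1.78% and 7.78%, at or under the upper limit of erythroid-like cells in every library (7.397%, 9.89%, 11.5% and 33.7%), so no expression is read from these shares. In the AMH library theca-like (5.39%) and mural smooth muscle-like cells (4.81%) lay at or under the erythroid-like interval, and their levels of 43.2 and 41.7 CPM lay within the erythroid-like one, so these class values cannot be told apart from background, although theca-like cluster 14, at 152 CPM, lay above it. Stroma-like cells there had a share of 6.07%, inside the erythroid-like interval, but a level of 114.8 CPM (110.5 to 119.4), above it. The granulosa-like share of the AMH library (18.7%) also lay inside the erythroid-like interval of that library, so it is not read as expression or ranked, although the granulosa-like level of 209.9 CPM lay above it. Among the other 3 libraries doxorubicin+AMH had the highest share.

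Among granulosa-like clusters, Top2a was highest in cluster 4, led by Inhba, Inhbb and Hsd17b1, genes of growing follicles, at 425, 378, 473 and 394 CPM. Cluster 9, led by Cntn4, Cdh12 and Amh, had 263, 248, 297 and 222 CPM, cluster 6, led by Slc38a5, 185, 142, 220 and 170 CPM, and cluster 7, led by Shroom3, 33.25, 34.05, 43.8 and 36.9 CPM. Doxorubicin+AMH had the highest CPM in each of these 4 clusters. In cluster 7, however, the share of cells with a Top2a UMI after thinning was highest in AMH (5.83% against 4.24%, with overlapping intervals), so no order of the libraries is read for that cluster. The doxorubicin+AMH / doxorubicin ratio within them was 0.32 (0.28 to 0.37) in cluster 4, 0.63 (0.55 to 0.71) in cluster 6, 0.36 (0.18 to 0.54) in cluster 7 and 0.26 (0.18 to 0.33) in cluster 9. Cluster 4 held 22.3%, 21.3%, 40.2% and 31.9% of granulosa-like cells, and this mix of clusters moved with the class value of 0.61. Its part in that value was not tested.

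Stroma-like cells held most of their Top2a in a single cluster, with 4865 of 5216, 4333 of 4682, 3167 of 3536 and 2230 of 2580 UMIs. This cluster 5, led by Enpep and Col4a1, had 340, 313, 298 and 295 CPM and made up 24.7%, 30.3%, 24.1% and 18.9% of the class. Clusters 1, 2 and 12, led by Lrat, Kcnk2 and Clec3b, had between 11.9 and 30.5 CPM. Cluster 5 also had the highest Tdp1 level of the 4 stroma-like clusters in each library (18.4, 16.8, 17.5 and 14.02 CPM). Tdp2 in cluster 12 had 29.8 (24.5 to 35.9), 14.6 (10.7 to 19.5), 40.7 (31.3 to 52.1) and 25.9 (20.5 to 32.4) CPM from 111, 46, 63 and 77 UMIs, with doxorubicin the lowest. That is a log2 ratio of -1.03 (-1.56 to -0.52) for doxorubicin / control and of 0.65 (0.15 to 1.15) for doxorubicin+AMH / AMH. This cluster was singled out after its values were seen. The share of all genes past 1.5-fold within it is not given here, so the ratios are values only.

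The mural smooth muscle-like class held clusters with different Top2a levels. Cluster 3, led by Acta2 and Myh11, had Top2a at 18.8, 10.9, 41.0 and 42.1 CPM. Cluster 18, led by Rgs5 and Ndufa4l2, genes of pericytes, had 140, 176, 76.9 and 62.6 CPM. Its share of cells with a Top2a UMI after thinning did not follow that order, at 8.55%, 9.88%, 12.5% and 5.13% of 117, 81, 64 and 78 cells with overlapping intervals, so no order of the libraries is read for this cluster and its ratio is given as a value only. The doxorubicin+AMH / doxorubicin ratio was 1.92 (1.58 to 2.27) in cluster 3, and its value in cluster 18 was -1.19 (-1.65 to -0.75). Cluster 18 rested on 49 to 184 Top2a UMIs a library. The intervals of cluster 3 overlapped those of erythroid-like cells except in doxorubicin+AMH, so the size of the cluster 3 ratio is uncertain.

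The theca-like values need their clusters beside them, since different clusters held most of the class. Cluster 10, led by Cyp17a1 and Cyp11a1, held 78.4% of control and 70.9% of doxorubicin theca-like cells, and cluster 8, led by Prss35 and Pde10a, held 74.6% of doxorubicin+AMH and 82.0% of AMH cells. Cyp17a1, the androgen-making enzyme that marks theca cells, was at 2081 and 2018 CPM in cluster 10 of control and doxorubicin, and at 71.7 and 33.5 CPM in cluster 8 of doxorubicin+AMH and AMH. Top3a levels differed between these clusters. Cluster 10 had 19.1 (17.3 to 21.0) and 20.1 (17.95 to 22.4) CPM in control and doxorubicin, and cluster 8 had 10.0 (8.22 to 12.1) and 10.3 (8.65 to 12.2) CPM in doxorubicin+AMH and AMH. The few cluster 8 cells of control (41 cells, 9.41 CPM from 4 UMIs) and doxorubicin (37 cells, 10.3 CPM from 6 UMIs) and the few cluster 10 cells of doxorubicin+AMH (49 cells, 6.77 CPM from 7 UMIs) and AMH (32 cells, 7.19 CPM from 8 UMIs) had wide intervals. Within cluster 10 the intervals of doxorubicin+AMH (2.72 to 13.9) and AMH (3.10 to 14.2) lay below those of control and doxorubicin. Cyp17a1 in these few cells was at 1516 and 622.4 CPM, so the cells of cluster 10 were not alike between libraries. Within cluster 8 all 4 intervals overlapped. The class value for Top3a and AMH / control was -0.53, under 1.5-fold, when every cell was weighted the same, and for doxorubicin+AMH / doxorubicin it lay between -1.12 and -0.78 over all settings tried.

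Top2a in theca-like cells lay mostly in cluster 14, led by Sct and Enpep, with 164 of 269, 823 of 1058, 855 of 997 and 583 of 793 UMIs. The cluster held 144, 138, 148 and 134 cells and had 46.1, 269, 170 and 152 CPM. The rest of the theca-like cells had 4.65, 13.9, 11.8 and 14.5 CPM, with intervals that overlap those of erythroid-like cells. The doxorubicin / control ratio was 2.55 (2.30 to 2.80) in cluster 14 and 1.58 (1.24 to 1.92) without it, and AMH / control was 1.72 (1.47 to 1.98) and 1.64 (1.29 to 1.99). Enpep also led stroma-like cluster 5, and in the sum of clusters 5 and 14 Top2a was at 281.3, 304.9, 256.9 and 246.8 CPM, a doxorubicin / control ratio of 0.12 (0.06 to 0.17). Control was not the lowest library in that sum. The ratio of doxorubicin+AMH / AMH, 0.44 over the class, was -0.29 without cluster 14 and -0.44 with cells gated one by one.

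**Figure D4:**
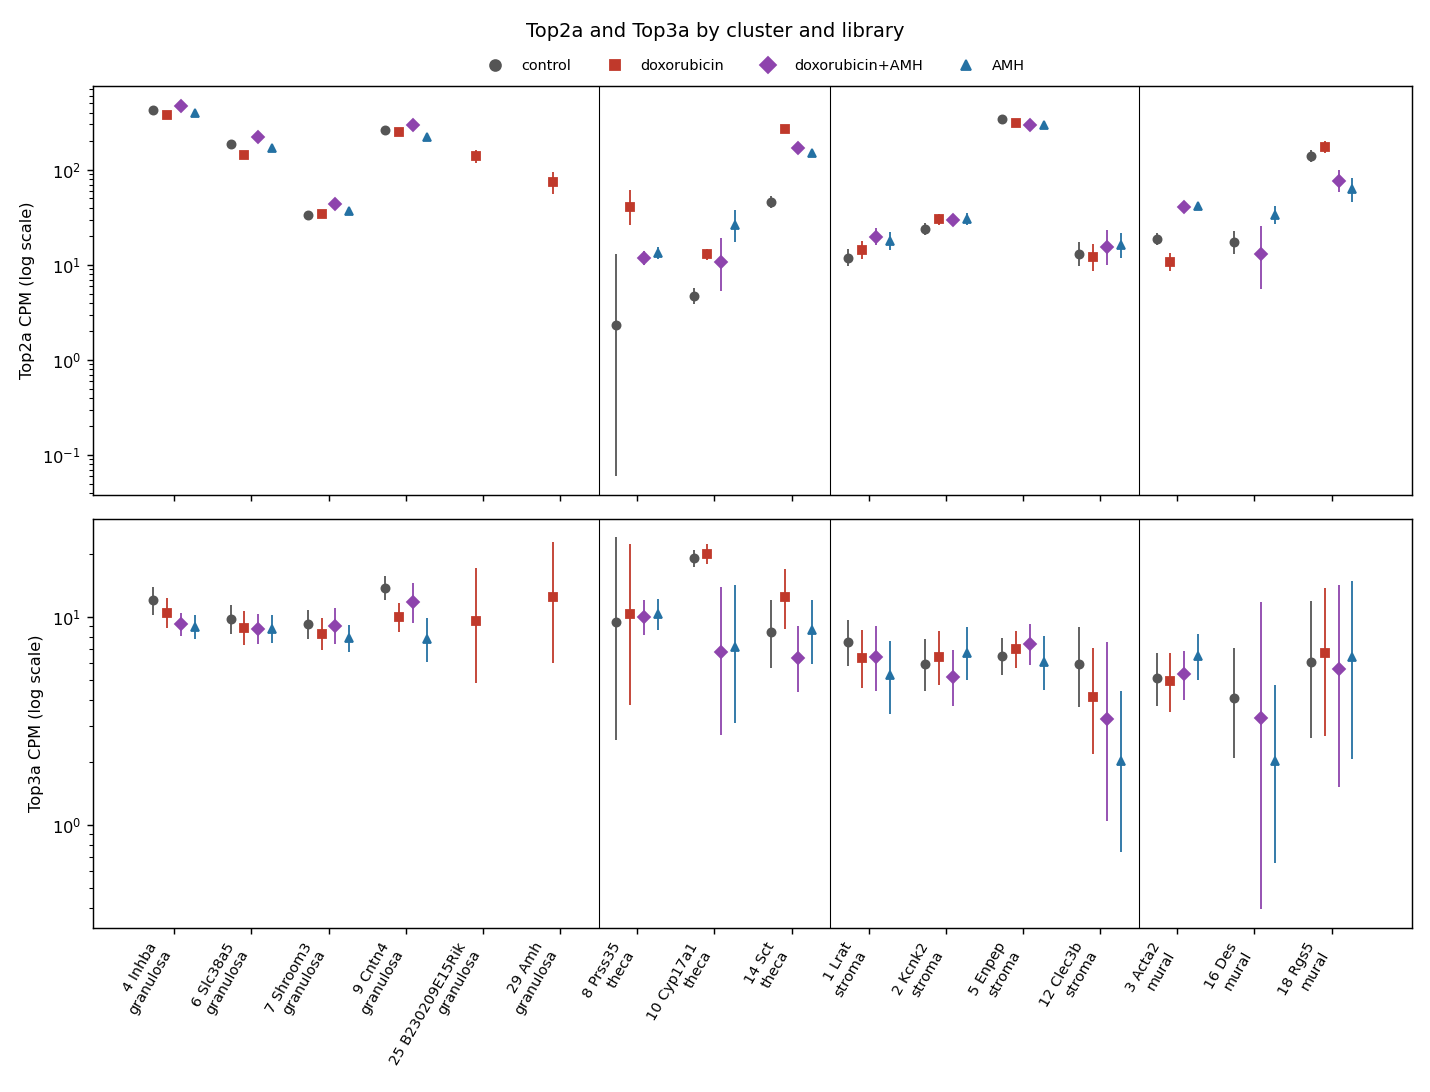
Top2a (top) and Top3a (bottom) levels in CPM (log scales) by cluster and library for the 4 large classes, in clusters with at least 30 cells of a library, with 95% counting intervals. Each cluster is named by its number, its leading gene and its class. Top2a is concentrated in clusters 4, 9, 6, 5, 14 and 18, and Top3a is highest in cluster 10 of control and doxorubicin.

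Among the smaller classes, blood endothelial-like cells (173, 175, 65 and 89 cells) had a Top2a ratio of -0.83 (-1.01 to -0.66) for doxorubicin / control and -1.20 (-1.40 to -1.01) for AMH / control, comparisons in which 17.3% and 17.4% of all genes passed 1.5-fold. Macrophage-like cells (192, 95, 99 and 190) had -0.59 (-1.11 to -0.09) and -0.59 (-0.98 to -0.21) for these, against 27.0% and 19.4%. Their ratio was 0.70 (0.28 to 1.12) for doxorubicin+AMH / AMH and 0.70 (0.17 to 1.25) for doxorubicin+AMH / doxorubicin, beside 25.9% and 31.1%. After thinning, 8.97%, 4.55%, 14.3% and 6.16% of macrophage-like cells had a Top2a UMI. For blood endothelial-like cells it was 13.7%, 9.92%, 8.77% and 6.02%. In both classes the intervals of these shares overlapped between libraries, so the Top2a ratios are given as values only. Tdp2 in blood endothelial-like cells had 26.0, 35.8, 21.3 and 27.4 CPM, and its ratio of -0.75 (-1.46 to -0.10) for doxorubicin+AMH / doxorubicin stood beside 27.8% of all genes. In macrophage-like cells Tdp2 was at 0.60 (-0.37 to 1.63) in the same comparison. Tdp1 there was at -1.41 (-3.83 to 0.38) for doxorubicin / control and 1.28 (-0.68 to 3.78) for doxorubicin+AMH / doxorubicin, with 3 UMIs in doxorubicin.

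Cell cycle genes were read beside Top2a from lists that leave it out. The 51 G2/M genes had a median log2 ratio in granulosa-like cells of -0.07 in doxorubicin / control but 0.44 in doxorubicin+AMH / AMH. It was -0.04 in AMH / control but 0.51 in doxorubicin+AMH / doxorubicin. The medians of all genes were -0.02, -0.00, -0.08 and -0.06 in the same order. All 51 passed the filter on low levels, and 15 rose past 1.5-fold for doxorubicin+AMH / doxorubicin while 0 fell, beside 148 of all 10625 genes that rose and 514 that fell. The 42 S phase genes had medians of 0.04, 0.29, -0.09 and 0.17. In theca-like cells 38 of the 51 G2/M genes passed the filter, with medians of 1.11, 0.27, 0.98 and 0.11, and 25 rose for doxorubicin / control, beside 155 of all 10476 genes. For AMH / control 24 rose and 1 fell, beside 1006 and 998 of all genes. Both comparisons share the control library. In mural smooth muscle-like cells, also with 38, the medians were -0.06, 0.01, 0.35 and 0.27. In stroma-like cells, with 48, they were 0.00, 0.29, -0.33 and -0.03. There 47 of 48 lay above 0 in doxorubicin+AMH / AMH and 1 of 48 in AMH / control. Top2a had the same sign as the median of these genes wherever that median was at least 0.1 from 0. Both come from the same libraries.

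The other genes of the pathway were read from 3 lists. Of 10 other topoisomerases and partners 9 were in the files, of 15 genes of adduct removal and break end processing all 15, and of 8 end joining genes all 8. In granulosa-like cells 8, 15 and 7 of them passed the filter, and 0 passed 1.5-fold in either doxorubicin comparison, where 0.621% and 1.88% of all genes did, so the count is near the background. Over the 4 classes, doxorubicin / control had 1 of 112 values past 1.5-fold and each of the other comparisons 2 of 112, where the share of all genes ran from 0.621% to 19.1% by class and comparison, and no gene passed in the same direction in both doxorubicin comparisons of a class. Top1mt, the mitochondrial topoisomerase I, passed both in mural smooth muscle-like cells in opposite directions, at -0.61 and 0.59, from 6.78, 4.43, 7.67 and 5.08 CPM. It was at 0.79 in doxorubicin+AMH / doxorubicin, where Blm was at -0.96 in the same class. Ercc4 there was at 0.72 in doxorubicin+AMH / AMH and -0.69 in AMH / control. The single granulosa-like value past 1.5-fold was that of Nhej1, an end joining factor, with 16.97, 14.3, 10.2 and 11.1 CPM and a ratio of -0.61 for AMH / control. The list medians for doxorubicin / control in granulosa-like cells were 0.03, -0.07 and -0.04, beside -0.02 for all genes.

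Across the 24 class and library sums of the 6 classes, the genes most like Top2a by Pearson correlation of log2(CPM + 1), among 11824 genes, were Tpx2 (0.98), Cenpe (0.97) and Mki67 (0.97), all genes of mitosis or dividing cells. Top1 was most like Psip1 (0.9255), Rbm26 (0.925) and Hnrnph1 (0.92). Top2b was most like Sfswap (0.96), Dennd5b (0.94) and Zc3h13 (0.94), and Top3a most like Aldh3b1 (0.95), Rbm47 (0.92) and Susd3 (0.92). Tdp1 was most like Wee1 (0.92), a cell cycle kinase, Rfxank (0.88) and Bnip1 (0.87), and Tdp2 most like Cops4 (0.88), Tfpt (0.87) and Tmem29 (0.86). Among the 6 genes themselves the correlation was highest for Top1 with Top2b (0.71) and lowest for Tdp1 with Top3a (-0.58). The points share libraries, the total they are divided by and, within a class, much of their makeup.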

How the data were processed

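Single ovarian cells of 4 libraries were read as deposited UMI counts, which the authors made with Cell Ranger 7.0.0 per the file headers, with build mm10 per the submitters' processing notes. Gene models and the handling of introns and strand are not given in the sources used here. Barcodes under 1000 UMIs or over 20% mitochondrial UMIs were dropped, and the cells ranked highest by Scrublet (scanpy 1.11.5) were removed as doublets at 0.8% per 1000 cells (616, 362, 435 and 659 removed). Libraries were clustered jointly on 2000 variable genes without the 6 genes, the gene lists or mitochondrial genes (30 components, 20 neighbours, Leiden resolution 1, leidenalg 0.10.2). A cluster was named from marker lists when at least 3 markers and 60% of a list exceeded the median cluster by 1 log2 unit and were seen in 10% of its cells. A cluster of low depth with no marker among its 10 leading genes stayed unnamed (2 clusters). Background shares are over genes whose mean over the 4 libraries reached 5 CPM. Intervals are exact Poisson, Clopper-Pearson or conditional binomial (scipy 1.17.1). Named beside the 6 genes were pathway genes past 1.5-fold in the same direction in both doxorubicin comparisons of a class (0 found), the 3 genes most alike to each, and clusters by leading genes. Nhej1, Top1mt, Blm, Ercc4 and single clusters were named after their values were seen. Promoters came from RefSeq and positions from GENCODE, both on GRCm38. The genes, lists and comparisons were chosen with earlier results of these data known. The ratio code was tested on simulated data.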

Additional observations from a re-analysis of the deposited data

Results flagged for a closer look

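Top2a had opposite signs in pairs of comparisons that ask the same question in other company. In granulosa-like cells doxorubicin / control was -0.14 and doxorubicin+AMH / AMH 0.52. The pair of AMH / control, at -0.045, and doxorubicin+AMH / doxorubicin, at 0.61, had opposite signs in CPM only, since median-of-ratios scaling gave 0.07 and 0.71, the same direction. In macrophage-like cells the same pairs were -0.59 and 0.70, and -0.59 and 0.70. These are values only, since the shares of macrophage-like cells with a Top2a UMI overlapped between libraries. Between classes, doxorubicin / control was 2.36 in theca-like and -0.83 in blood endothelial-like cells, and AMH / control 2.07 and -1.20. The theca-like values were 1.00 and 0.97 with doublets left in, and the sum of clusters 5 and 14 gave 0.12 and -0.19. The theca-like class level was not above background in control and AMH. None of these differences was tested, since each group is 1 library.

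The unnamed clusters, left out of the classes, held Top2a. Cluster 11, led by Unc5c, had 77.3, 80.1, 167.3 and 112.6 CPM, listed as in the report. Cluster 13, led by Gm26917 with the mitotic genes Ube2c and Birc5 among its leading genes, had 442, 290.7, 396.2 and 204.5 CPM. Both clusters were of low depth and passed the granulosa marker list. Erythroid-like cells had 2.47 to 32.6 CPM, and each interval of the unnamed clusters lay above the erythroid-like interval of the same library.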

How the results depend on the processing

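Of 96 ratios of the 6 genes, 5 passed 1.5-fold, and all 5 stayed past it with at least 500 UMIs, median-of-ratios scaling, 5 CPM added, and, chosen after seeing the data, without clusters 16, 25 and 29 or without cluster 14. For AMH / control 2 passed, against 1 with every cell weighted the same, 1 with a filter of 20 CPM (fewer genes counted) and 4 with cells gated one by one. For doxorubicin+AMH / doxorubicin 2 passed, against 1 each with at most 10% mitochondrial UMIs, doublets left in and the 20 CPM filter. For doxorubicin+AMH / AMH 0 passed, against 2 with at least 500 UMIs and 1 with cells gated one by one. Apart from the filter, the cause was not tested. No called ratio changed sign. The share of all genes past 1.5-fold ran from 0.621% to 19.1%, and from 23.5% to 37.8% with no filter on low CPM, 0.182% to 16.4% with 20 CPM and 0.264% to 13.3% with 5 CPM added. With median-of-ratios scaling the granulosa-like median over all genes shifted by 0.117 in AMH / control, and by 0.101 in doxorubicin+AMH / doxorubicin, where Top2a then stood at 0.71. Thinned to 1000 UMIs, granulosa-like cells with a Top2a UMI made up 11.2%, 10.9%, 16.3% and 12.3%, and cycling ones 27.1%, 28.3%, 36.7% and 30.15%. Thinned to 2000 UMIs as in the report but with at least 3 cell cycle UMIs, cycling cells made up 77.0%, 80.7%, 83.4% and 81.5%. Doxorubicin+AMH had the highest cycling share at each setting. Its Top2a share was the highest among the libraries other than AMH, whose share is not ranked, as in the report. No paired analysis was possible because each group is 1 library, and no library could be left out. Depth limits Top3a and Tdp1 most, whose widest intervals spanned 1.15 and 0.75 log2 units.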
